A study of Mus musculus with 15 samples.

Results

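Fggy, Gm2423 and Wdfy1 are 3 genes whose levels separated the renalase-knockout mouse hearts of this study from each other, library by library. They were 3 of the 17447 genes in the deposited count table, and all 3 were among the 13021 that passed the filter on low counts. Gm2423 passed it through its counts in knockout hearts. They were chosen on the knockout libraries themselves, so their levels in those libraries are given as a description with no test. The comparisons between wild-type groups, whose differences the choice did not use, were tested. The spread in those tests was estimated over all 15 libraries, so the knockout libraries enter it. The name under which the genes were grouped speaks of inherited variants in the knockout background. The counts hold no genotype, so that reading was not tested here.

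The series held 15 heart RNA-seq libraries in 5 groups of 3, all from male C57BL/6J mice that were 6 to 8 weeks old when they entered the study, with hearts taken 18 weeks after surgery. WTSHAM mice were wild type and had a sham operation, WTCKD mice were wild type with chronic kidney disease (CKD) from subtotal nephrectomy and an injection of vector, and WTCKD + RNLS mice were wild type with CKD and the virus AAV9-cTnT-RNLS. No vector injection is named for WTSHAM, so in WTCKD against WTSHAM nephrectomy and vector cannot be told apart. The effect called surgery in that comparison stands for both. KOCKD and KOCKD + RNLS mice carried the rnls-/- genotype, made with TALEN nucleases, and had CKD with the vector or with the virus. The virus drives renalase from the cardiac troponin T promoter, which is active in cardiomyocytes. Knockout and wild-type mice came from different suppliers, so genotype and source of the animals cannot be told apart. A knockout sham group was not analysed here, Rnls itself was not among the genes of the count table, so the genotype of each library could not be checked on its RNA, and the sources used here do not give which litter each mouse came from. Libraries held 10480788 to 13424078 reads counted to genes. The summed level of 6 cardiomyocyte markers was 69200 to 94100 CPM (reads scaled to library size), and that of 4 lung markers was at most 1.25 CPM. Other sums varied more between libraries. The sum of 6 atrial markers ran from 87.6 to 2680 CPM, with 457, 119 and 2680 CPM in KOCKD, and that of 5 erythrocyte markers from 35.7 to 579 CPM. Their part in the differences between libraries was not tested.

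Fggy is a member of the FGGY family of carbohydrate kinases and phosphorylates the pentose ribulose. Wdfy1 carries WD40 repeats and a FYVE domain, which binds the lipid phosphatidylinositol 3-phosphate on early endosomes, and has been linked to signaling from the Toll-like receptors TLR3 and TLR4. Gm2423 is annotated as a pseudogene, and its sequence is a copy of the messenger RNA of Ywhaq, which encodes the adaptor protein 14-3-3 theta. Processed pseudogenes arise when a messenger RNA is copied back into the genome, so that reads from copy and source can be hard to tell apart.

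The 3 genes lie on different chromosomes. In mouse genome build mm9, with the GENCODE annotation, Fggy (ENSMUSG00000028573) covers chr4:95224198-95593630 on the plus strand. Wdfy1 (ENSMUSG00000073643) covers chr1:79698837-79772718 on the minus strand. Gm2423 (ENSMUSG00000061724) is a single exon of 738 bases at chr13:13324425-13325162 on the minus strand. Over those 738 bases Gm2423 differed from the coding sequence of Ywhaq, at chr12:21395932-21423498, at 2 positions, and over 1485 aligned bases that reached beyond the annotated exon at 4 positions with no gap. Another copy, Gm11226, is also a single exon of 738 bases (chr4:69909670-69910407), lies within the span of Cdk5rap2 and differed from Gm2423 at 3 positions. Gm11226 was not a row of the count table.

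The next 2 windows show how little sequence tells the copies apart. Positions count from 1 at the 5′ end of the annotated Gm2423 exon, and the sequences, from mm9, read 5′ to 3′ along the minus strand of each copy. The window from position 393 to 433 holds substitution G413A (Ywhaq base first, Gm2423 base second), and capitals mark every position at which the 3 copies differ.
Gm2423: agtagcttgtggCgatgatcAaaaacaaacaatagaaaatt
Ywhaq: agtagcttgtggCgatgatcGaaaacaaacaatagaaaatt
Gm11226: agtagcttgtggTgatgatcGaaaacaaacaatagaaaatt
The window from position 589 to 629 holds T609C, where Gm2423 and Gm11226 carry the same base.
Gm2423: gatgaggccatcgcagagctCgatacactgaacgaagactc
Ywhaq: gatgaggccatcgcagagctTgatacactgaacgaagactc
Gm11226: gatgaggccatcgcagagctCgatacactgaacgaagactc
Of the 2 positions in the annotated exon, only 413 therefore separated Gm2423 from both other copies. Within the annotated exon, a read that covers neither position could have come from Gm2423 or from Ywhaq. How the counting treated such reads is not given in the sources used here, so every Gm2423 count is uncertain in this sense. The positions beyond this exon at which the aligned copies differed are not shown. Whether the counted feature reached them is not known. For the other members 1 annotated transcript each was searched for copies elsewhere. The Fggy transcript of 1891 bases, of a gene with 3886 exon bases, had no match elsewhere in mm9. The Wdfy1 transcript of 4551 bases, of a gene with 6308, matched other places only within a stretch of 227 bases. That stretch had 73782 matches, the longest of 207 bases, with an identity of at most 98.6%. Exon bases outside these transcripts were not searched.

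**Figure D1:**
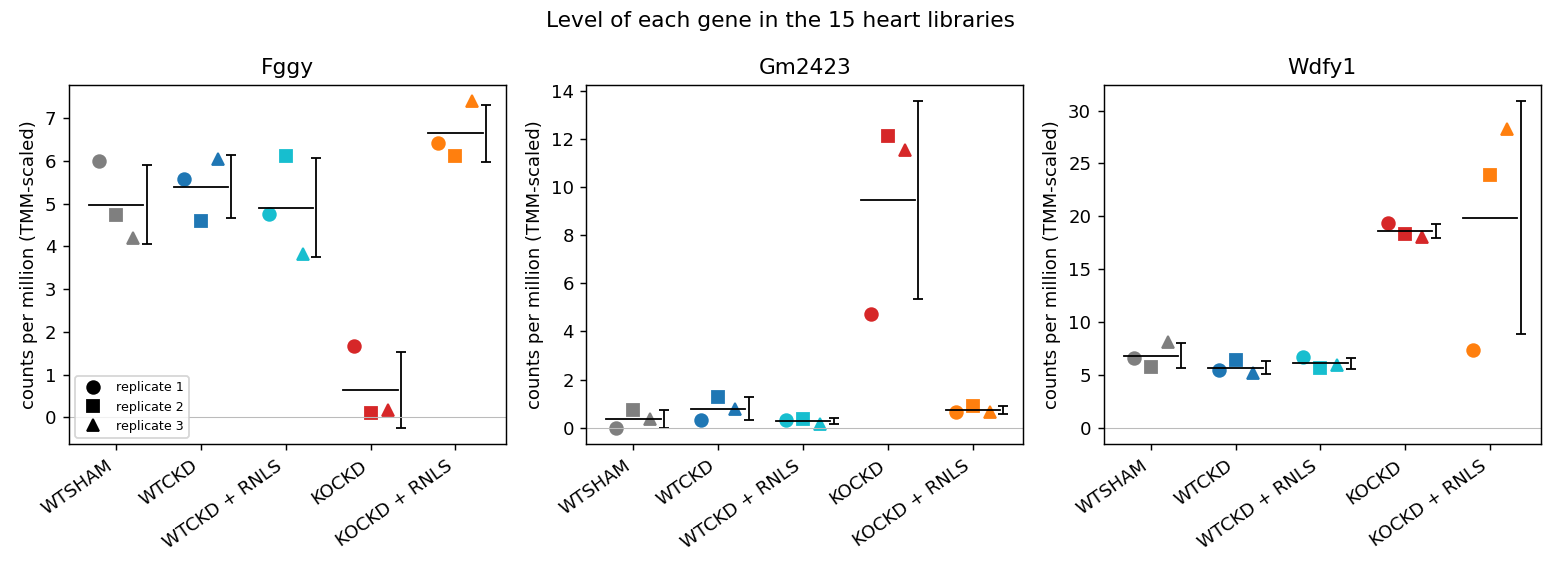
Level of Fggy, Gm2423 and Wdfy1 (y axis, CPM scaled by trimmed mean of M-values) in the 15 libraries by group (x axis), with 1 point per library, a line at the group mean and a bar of ± 1 SD. Fggy was low and Gm2423 high in the 3 KOCKD libraries, whereas Wdfy1 was high in 5 of the 6 knockout libraries and at 7.39 CPM in replicate 1 of KOCKD + RNLS.

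In the 9 wild-type hearts Fggy was a low but steady transcript. Its level was 6.00, 4.74 and 4.19 CPM in WTSHAM, 5.58, 4.59 and 6.04 CPM in WTCKD, and 4.76, 6.13 and 3.83 CPM in WTCKD + RNLS, with a median of 4.76 CPM and a coefficient of variation of 16.9% (n = 9). The 3 wild-type groups overlapped. Neither surgery nor the virus moved it past the test in wild-type mice: the log2 fold change was 0.12 ± 0.38 (SE, adjusted p = 0.911) in WTCKD against WTSHAM and -0.15 ± 0.39 (adjusted p = 0.878) in WTCKD + RNLS against WTCKD, both from the quasi-likelihood test of edgeR and adjusted by Benjamini-Hochberg over all genes. The 95% interval of the fold was 0.619 to 1.91 for surgery and 0.511 to 1.59 for the virus, so this fit did not resolve changes of that size. Its spread includes the steps of Fggy among the knockout libraries. With the 6 libraries of WTCKD against WTSHAM alone the SE was 0.21 instead of 0.38.

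In the knockout hearts Fggy took 3 levels. KOCKD replicates 2 and 3 held 1 and 2 reads, or 0.0932 and 0.161 CPM, and KOCKD replicate 1 held 19 reads, or 1.66 CPM. The 3 KOCKD + RNLS libraries held 79, 74 and 79 reads, or 6.42, 6.12 and 7.40 CPM. Every KOCKD library lay below every wild-type library, and the KOCKD + RNLS libraries lay at the upper end of the wild-type range or above it. Set against the wild-type median, KOCKD replicate 1 was at 35% (exact Poisson 95% interval 21.0 to 54.6%), replicate 2 at 1.96% (0.0496 to 10.9%) and replicate 3 at 3.39% (0.410 to 12.2%). These intervals, like all counting intervals given here, cover counting error only and not the spread between animals. In the order of the 6 knockout libraries, the step from KOCKD replicate 3 to replicate 1 was 10.3-fold (2.49 to 91.3) and that from KOCKD replicate 1 to KOCKD + RNLS replicate 2 was 3.68-fold (2.20 to 6.46), while the neighbors within the lowest pair and within the KOCKD + RNLS libraries had intervals that held 1.

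Gm2423 moved the other way. In wild-type hearts it was close to the limit of detection, with 0, 10 and 5 reads in WTSHAM, 4, 14 and 9 in WTCKD, and 4, 4 and 2 in WTCKD + RNLS, and a median of 0.368 CPM. For the WTSHAM library with no read, a count of 0 allows up to 3 reads, or 0.250 CPM. The wild-type groups overlapped, and neither comparison passed the test: the log2 fold change was 1.02 ± 0.71 (adjusted p = 0.499) in WTCKD against WTSHAM and -1.46 ± 0.77 (adjusted p = 0.308) in WTCKD + RNLS against WTCKD. At these counts the 95% intervals of the fold, 0.715 to 5.77 and 0.118 to 1.12, were wide. Gm2423 passed the filter on low counts through the knockout libraries. With so few wild-type reads, a result short of the threshold cannot show that its wild-type level stayed unchanged.

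In KOCKD hearts Gm2423 held 54, 130 and 143 reads, or 4.72, 12.1 and 11.5 CPM. In KOCKD + RNLS hearts it held 8, 11 and 7 reads, or 0.650, 0.910 and 0.656 CPM. All 3 KOCKD libraries lay above all 9 wild-type libraries, and all 3 KOCKD + RNLS libraries lay within the wild-type range of 0 to 1.29 CPM. KOCKD replicate 1, the library with the intermediate Fggy level, was also intermediate here, at 40.1% (exact interval of the rate ratio 29.3 to 53.8%) of replicates 2 and 3 pooled. Replicates 2 and 3 differed by 1.05-fold (0.823 to 1.34), an interval that holds 1.

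Because reads of Gm2423 and Ywhaq are so alike, the share of Gm2423 in the sum of both was also computed. Ywhaq was brought in after the values were seen. Its own count was 392 to 544 reads in every library, and none of the 5 comparisons called it (adjusted p from 0.570 to 0.728). In the 9 wild-type libraries 0 to 2.88% of the joint reads were counted to Gm2423, and in KOCKD + RNLS 1.65, 2.60 and 1.75%. In KOCKD the share was 12% (exact binomial 95% interval 9.12 to 15.3%), 21.3% (18.1 to 24.8%) and 23.0% (19.8 to 26.5%). The KOCKD shares stood above all others, and the sum of Gm2423 with Ywhaq was 39.5, 56.8 and 50.03 CPM, against 34.98 to 39.4 CPM in KOCKD + RNLS and 35.9 to 46.7 CPM in the wild-type libraries. Ywhaq itself was at 34.7, 44.7 and 38.5 CPM in KOCKD replicates 1, 2 and 3, the first below and the others inside the 35.5 to 46.3 CPM of the wild-type libraries.

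**Figure D2:**
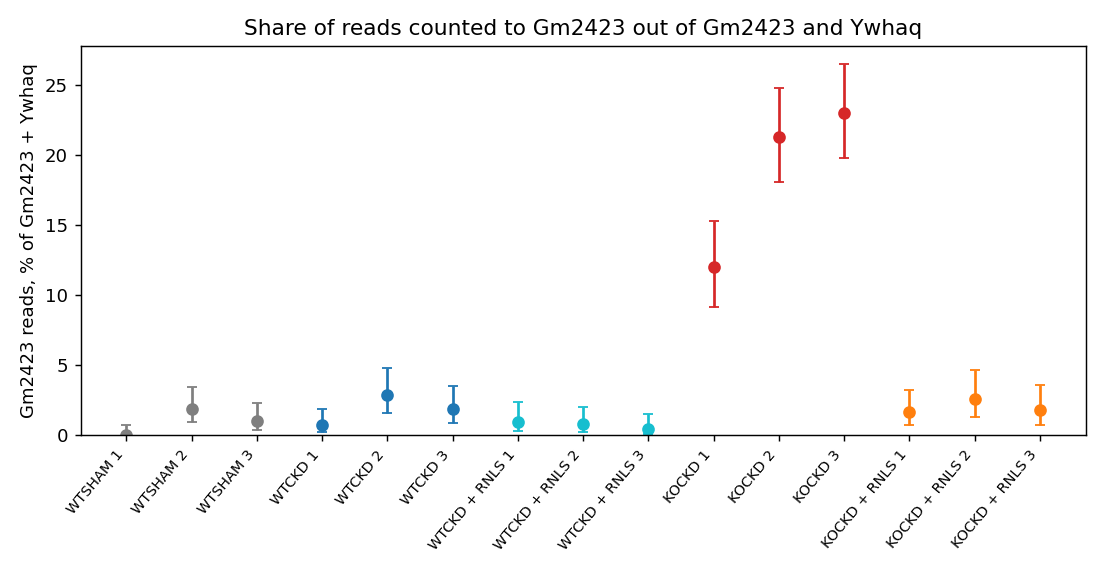
Reads counted to Gm2423 as a percentage of the reads counted to Gm2423 and Ywhaq together (y axis) in each of the 15 libraries (x axis), with exact binomial 95% intervals. The 3 KOCKD libraries sit at 12 to 23% and the other 12 libraries at no more than 2.88%.

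Wdfy1 followed a different partition of the knockout hearts. Its wild-type levels were narrow, from 5.19 to 8.09 CPM with a median of 5.97 CPM and a coefficient of variation of 13.99% (n = 9). Surgery and virus left it short of the threshold in wild-type mice, with log2 fold changes of -0.26 ± 0.35 (adjusted p = 0.755) in WTCKD against WTSHAM and 0.10 ± 0.35 (adjusted p = 0.911) in WTCKD + RNLS against WTCKD. The 95% intervals of these folds were 0.502 to 1.39 and 0.639 to 1.80. They too rest on a spread that includes the knockout libraries. With the 6 libraries of WTCKD against WTSHAM alone the SE was 0.19 instead of 0.35.

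All 3 KOCKD libraries had a Wdfy1 level 3.02 to 3.24 times the wild-type median, at 19.3, 18.4 and 18.1 CPM from 221, 197 and 224 reads. Neighbors among these 3 libraries had ratios whose counting intervals held 1. In KOCKD + RNLS the 3 replicates did not form 1 level: replicate 1 held 91 reads or 7.39 CPM, replicate 2 held 289 reads or 23.9 CPM and replicate 3 held 302 reads or 28.3 CPM. Replicate 1 was at 124% (99.7 to 152%) of the wild-type median and inside the wild-type range, whereas replicates 2 and 3 were at 400% (355 to 449%) and 474% (422 to 530%). The step between replicate 1 and the lowest KOCKD library was 2.44-fold (1.90 to 3.15). Replicate 1 of KOCKD + RNLS thus stood apart from replicates 2 and 3 of its own arm, which shared its genotype, surgery and virus. Fggy and Gm2423 also had a step within an arm, between KOCKD replicate 1 and KOCKD replicates 2 and 3, besides the step between the arms.

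**Figure D3:**
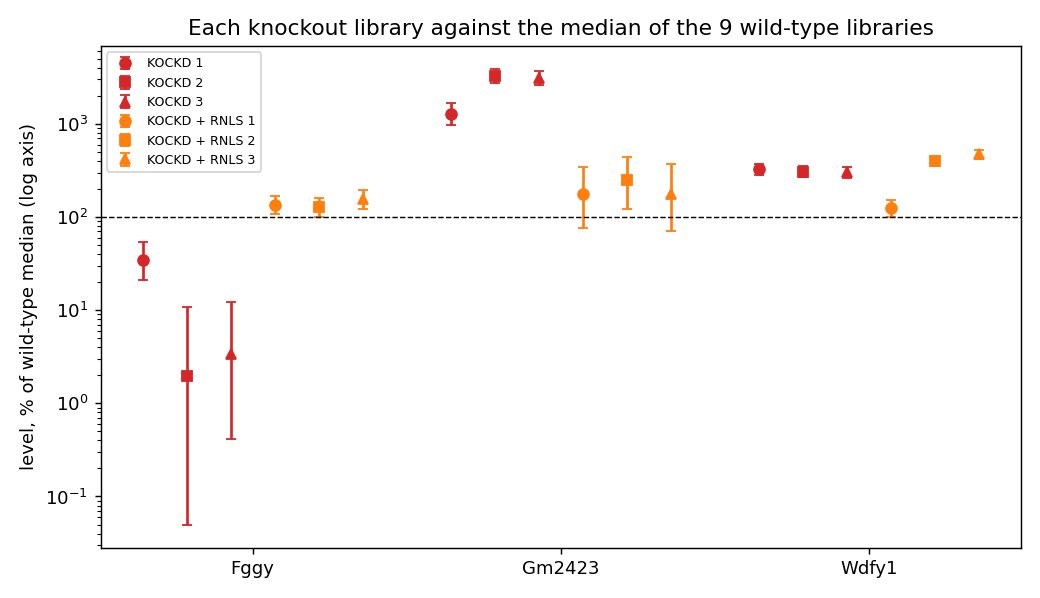
Level of each gene in each of the 6 knockout libraries as a percentage of the median of the 9 wild-type libraries (y axis, log scale; dashed line at 100%), with exact Poisson 95% intervals for counting error. Fggy spans 1.96 to 156%, Gm2423 177 to 3290% and Wdfy1 124 to 474%.

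The splits can be read side by side. KOCKD replicates 2 and 3 had almost no Fggy, high Gm2423 and high Wdfy1. KOCKD replicate 1 had intermediate Fggy, intermediate Gm2423 and high Wdfy1. KOCKD + RNLS replicates 2 and 3 had Fggy at the upper wild-type end or above it and high Wdfy1. Their Gm2423 lay within the wild-type range, at 247 and 178% of its median. KOCKD + RNLS replicate 1 differed from them by Wdfy1 within the wild-type range. For Fggy and Gm2423 the difference between the knockout arms coincides with vector against virus, and with 3 mice an arm a difference between the mice and an effect of the virus in knockout hearts cannot be told apart. The intermediate KOCKD replicate 1 is a difference within that arm. In wild-type hearts, where the same virus was compared with the same vector, no change of these genes passed the test. The log2 fold changes with the virus were -0.15 for Fggy, -1.46 for Gm2423 and 0.10 for Wdfy1 there. In knockout hearts they were 3.36, -3.66 and 0.09. The wild-type value of Gm2423 rests on 2 to 14 reads a library. A test of the difference of the virus effect between genotypes called 0 of 13021 genes. It is not read as a test of the members, which were chosen on these libraries. Over the 6 knockout libraries the log2 levels of Fggy and Gm2423 had a Pearson correlation of -0.979, and over the 9 wild-type libraries of -0.102. Wdfy1 had correlations of -0.05 with Fggy and 0.11 with Gm2423 over the 6 knockout libraries. These are descriptions of libraries that share animals and normalization, and the first rests on the split between the arms.

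The knockout comparisons are given for the 3 genes as sizes only. In KOCKD against WTCKD the log2 fold change was -3.07 ± 0.50 (SE) for Fggy, 3.57 ± 0.53 for Gm2423 and 1.70 ± 0.33 for Wdfy1, and for all 3 genes the groups did not overlap, as was true of 19.3% of all tested genes. This comparison called 0% of the tested genes at an adjusted p under 0.05 (0 of 13021 by edgeR, with 1318 at an unadjusted p under 0.05 and 8 called by DESeq2). The Fggy value depended on KOCKD replicate 1: without it the log2 fold change was -5.28. In KOCKD + RNLS against KOCKD it was 3.36 ± 0.50 for Fggy (5.57 without KOCKD replicate 1), -3.66 ± 0.53 for Gm2423 and 0.09 ± 0.30 for Wdfy1. Fggy and Gm2423 did not overlap between these groups, where 40.6% of the tested genes did not, and 16.1% of the tested genes were called. For Wdfy1 the sign of the last value rested on 1 library: without KOCKD + RNLS replicate 1 the log2 fold change was 0.49, and without replicate 3 it was -0.25. In KOCKD + RNLS against WTCKD + RNLS it was 0.44 ± 0.38 for Fggy, 1.37 ± 0.77 for Gm2423 and 1.70 ± 0.33 for Wdfy1. Gm2423 and Wdfy1 did not overlap there, beside 21.3% of all tested genes, and 0.338% of the tested genes were called. KOCKD + RNLS against KOCKD shares its libraries with each of the other two comparisons, so its values are not independent of theirs.

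In the wild-type comparisons 2.3% (WTCKD against WTSHAM) and 4.47% (WTCKD + RNLS against WTCKD) of tested genes were called, and 0 of the 3 members in either. As bulk samples, these libraries cannot tell fewer cells of a type from less RNA per cell. Of 11 lists of cell type and clock markers, 5 separated KOCKD from KOCKD + RNLS without overlap of their summed levels. Among all tested genes 40.6% did not overlap between these groups, so the count does not set the lists apart. In KOCKD and KOCKD + RNLS, in that order, the cardiomyocyte sum was 69200 to 73000 CPM and 82800 to 87100 CPM, and that of 10 genes of the evening phase of the clock 423 to 856 CPM and 891 to 1100 CPM. The macrophage sum was 301 to 360 CPM and 211 to 269 CPM, the endothelial sum 1130 to 1320 CPM and 1030 to 1060 CPM, and that of the morning phase of the clock 80.4 to 125 CPM and 63.2 to 77.5 CPM. The part of these lists in the levels of the 3 members was not tested.

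How uncommon such steps were was described over all genes. For each gene the 6 knockout libraries were ordered by log2 CPM, and the widest gap between neighbors was set beside the range over the 9 wild-type libraries. Of 11727 genes with an average log2 CPM above 1, the median gap was 0.21 on the log2 scale and 233 genes had a gap wider than their wild-type range. The 3 members were chosen for their steps in these same libraries, so a high rank was set by that choice and is a description only. Fggy had a gap of 2.48 against a wild-type range of 0.66 and ranked 18 of these 11727 genes by gap. Wdfy1 had a gap of 1.27 against a range of 0.62 and ranked 80. Gm2423 had a gap of 2.18 and ranked 26, but its wild-type range of 3.12, set by counts from 0 to 14, was wider than the gap. Its average log2 CPM was above 1 through its KOCKD levels. Without KOCKD + RNLS replicate 1 the Wdfy1 gap was 0.30.

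**Figure D4:**
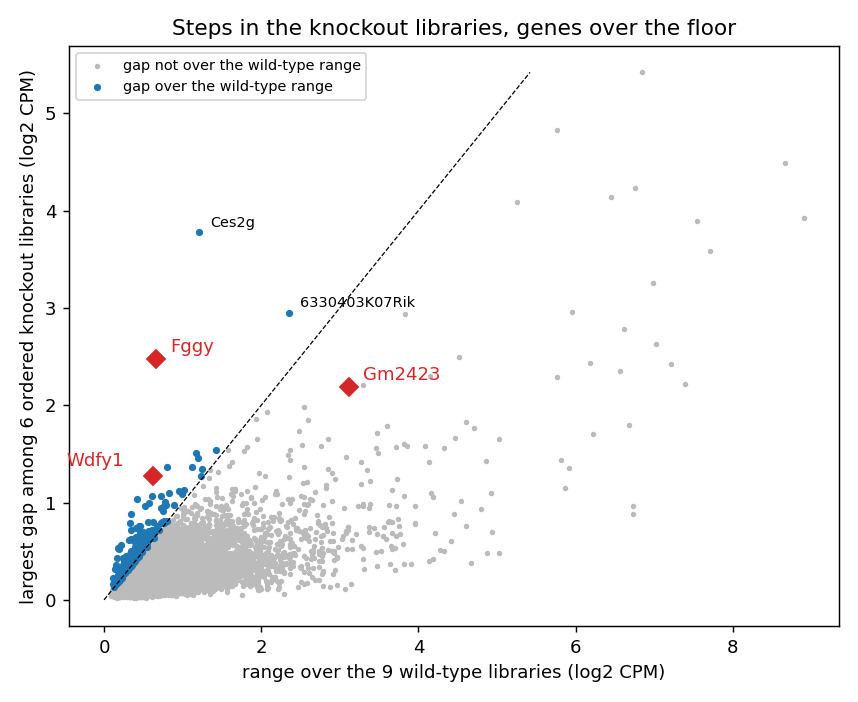
Widest gap among the 6 ordered knockout libraries (y axis, log2 CPM) against the range over the 9 wild-type libraries (x axis, log2 CPM) for the 11727 genes above the floor, with a dashed line where both are equal. Fggy and Wdfy1 lie above the line with gaps of 2.48 and 1.27, and Gm2423 lies below it with a gap of 2.18 against a range of 3.12.

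The 10 genes with the widest gaps above their wild-type range were Ces2g, 6330403K07Rik, Fggy, Ccl11, Aqp4, Mfap1b, Hmga1b, Lin7a, Plac9a and Tmem86b. The library or libraries on the low side were KOCKD replicates 2 and 3 for 6330403K07Rik, as for Fggy. 6330403K07Rik was at 0 to 0.689 CPM in wild-type hearts, at 5.07, 0 and 0.483 CPM in KOCKD and at 4.88, 10.6 and 9.74 CPM in KOCKD + RNLS, so the 2 knockout libraries at its wild-type level were those with almost no Fggy, and the 4 others stood above every wild-type library. Ces2g, a carboxylesterase gene, was at 0 CPM in KOCKD + RNLS replicate 1, the library with the wild-type Wdfy1 level, and at 2.14 to 4.64 CPM in the other knockout libraries against 2.04 to 4.96 CPM in wild-type hearts. Mfap1b reached 21.6 CPM in KOCKD replicate 2 and Hmga1b 23.1 CPM in KOCKD + RNLS replicate 2 alone. Both have near-identical copies in the mouse genome, as does Plac9a, so their counts are uncertain in the same way as those of Gm2423.

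The genes next to the members on their chromosomes, whose levels the choice did not use, were tested. In KOCKD against WTCKD, 0 of the 20 nearest tested genes of each member was called by edgeR or DESeq2, beside 0% of all genes, and their median log2 fold changes were -0.05 around Fggy, -0.02 around Gm2423 and -0.12 around Wdfy1, with an all-gene median of -0.0047. In KOCKD + RNLS against WTCKD + RNLS, again 0 of 20 was called around each member by edgeR, beside 0.338% of all genes, while DESeq2 called 1 neighbor. The nearest tested genes on either side were Jun and Hook1 for Fggy, Ero1b and Gpr137b for Gm2423, and Kcne4 and Mrpl44 for Wdfy1. In KOCKD against WTCKD their log2 fold changes were 0.41 ± 0.36 for Jun, -0.10 ± 0.11 for Hook1, 0.23 ± 0.23 for Ero1b, -0.01 ± 0.24 for Gpr137b, -0.41 ± 0.30 for Kcne4 and 0.04 ± 0.13 for Mrpl44. Over all 20 neighbors of each member the values ran from -0.63 to 0.82 around Fggy, from -0.63 to 0.27 around Gm2423 and from -1.45 to 0.37 around Wdfy1.

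In KOCKD + RNLS against KOCKD, where 16.1% of all genes were called, 1 of 20 neighbors of Fggy, 7 of 20 of Gm2423 and 3 of 20 of Wdfy1 were. Hook1, which encodes a protein that links cargo vesicles to microtubule motors and is next to Fggy, rose by 0.57 ± 0.11 on the log2 scale (adjusted p = 0.00449). Around Gm2423, Mtr, Ryr2, Zmynd11, Larp4b, Lyst and Arid4b rose by 0.27 to 0.88 and Psma2 fell by 0.34 (adjusted p from 0.002 to 0.0252). Ryr2 encodes the calcium release channel of cardiomyocytes and Lyst a regulator of lysosomal traffic. Around Wdfy1, Serpine2 fell by 0.66 and Fam124b fell by 2.81, while Dock10 rose by 0.84 (adjusted p from 0.0144 to 0.0371). In wild-type hearts, Acsl3, Epha4 and Irs1 near Wdfy1 fell by 0.82, 0.95 and 0.88 and Larp4b near Gm2423 rose by 0.37 with the virus (adjusted p from 0.00278 to 0.0446), and B3galnt2 near Gm2423 fell by 0.47 with surgery (adjusted p = 0.0453). The calls of Hook1, Larp4b and Lyst in KOCKD + RNLS against KOCKD, and of Irs1 in WTCKD + RNLS against WTCKD, held under all 11 alternatives, and each of the other calls was lost under at least 1.

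**Figure D5:**
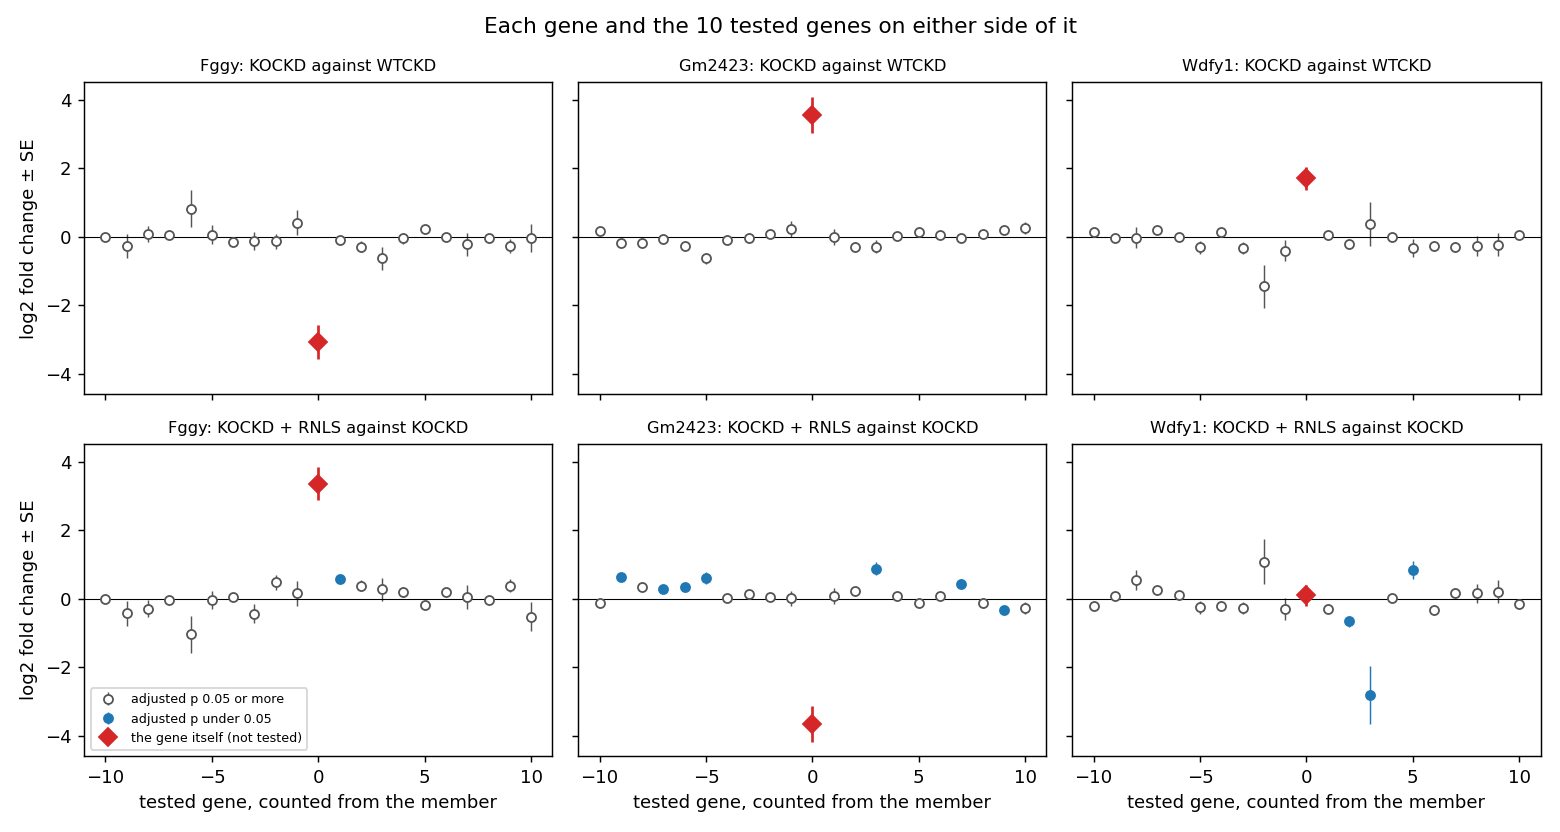
Log2 fold change ± SE (y axis) of each member (diamond) and of the 10 tested genes on either side, in chromosomal order (x axis, position counted in tested genes), for KOCKD against WTCKD and KOCKD + RNLS against KOCKD. Filled circles are neighbors with an adjusted p under 0.05, of which there are 0 in the upper row and 1, 7 and 3 in the lower row.

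The pathways in which the members act were then followed. Of the other FGGY-family kinases, 2 were tested (Gk, glycerol kinase, and Shpk, sedoheptulokinase), and 0 were called in any of the 5 comparisons, which called 0 to 16.1% of all tested genes. In KOCKD against WTCKD, where Fggy was low, the log2 fold change of Gk was 0.13 ± 0.13 and that of Shpk 0.11 ± 0.38. Of 12 tested genes of pentose handling, 0 were called in that comparison, beside 0% of all tested genes, so this count cannot show that the list stayed unchanged. In KOCKD + RNLS against KOCKD, 3 of the 12 were called, beside 16.1% of all tested genes: Pgls, Rpe and Taldo1, enzymes of the pentose phosphate pathway, fell by 0.41, 0.43 and 0.37 (adjusted p from 0.0151 to 0.0452), and the median of the list was -0.14 beside -0.0094 over all genes. Prps2, which makes phosphoribosyl pyrophosphate, fell by 0.65 in WTCKD + RNLS against WTCKD (adjusted p = 0.0194) and was higher by 0.73 in KOCKD + RNLS against WTCKD + RNLS (adjusted p = 0.0489). Of 11 alternatives, 9 lost the call of Rpe, 5 that of Pgls and 4 that of Taldo1, and the Prps2 calls were lost under 5 in WTCKD + RNLS against WTCKD and under 7 in KOCKD + RNLS against WTCKD + RNLS.

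Of 16 tested genes of FYVE-domain and phosphatidylinositol 3-phosphate biology, 0 were called in KOCKD against WTCKD, beside 0% of all tested genes. Wdfy1 was high in all 3 KOCKD libraries, but a comparison that called no gene cannot tell whether the list changed. In KOCKD + RNLS against KOCKD 4 of the 16 rose and 0 fell, beside 16.1% of all tested genes called, with a list median of 0.21 beside -0.0094 over all genes: Wdfy3, a scaffold of selective autophagy, by 0.67 ± 0.13 (adjusted p = 0.00389), Eea1, a tether of early endosomes, by 0.65 ± 0.14 (adjusted p = 0.00613), Zfyve26 by 0.48 and Zfyve16 by 0.31. The first 2 calls held under all 11 alternatives and the last 2 did not. Of 16 tested genes of TLR3 and TLR4 signaling, 0 were called in the 3 comparisons with knockout hearts, which called 0 to 16.1% of all tested genes. In the wild-type comparisons 1 was called, beside 2.3 and 4.47% of all tested genes: Irf7, an interferon-induced transcription factor, fell by 2.90 ± 0.26 in WTCKD against WTSHAM (adjusted p = 9.36e-05). Of 8 tested genes known to differ between C57BL/6 stocks, 0 were called in KOCKD against WTCKD and in KOCKD + RNLS against WTCKD + RNLS. These comparisons called 0% and 0.338% of all tested genes, so the count cannot tell whether the stocks differed. In KOCKD + RNLS against KOCKD, where 16.1% of all tested genes were called, Cyfip2 rose by 0.28 ± 0.08 (adjusted p = 0.0213), a call that was lost under 4 of 11 alternatives.

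Genes with the most similar pattern over the 15 libraries were found by Pearson correlation of log2 CPM, as a description. For Fggy they were Rnf19a (0.906), Wdr19 (0.868), Svil (0.867), Cemip2 (0.854) and Ntsr2 (0.846), and the most opposed were Gm2423 (-0.863) and Cdc16 (-0.843). Without KOCKD replicates 2 and 3, the libraries farthest from the Fggy median, the correlation stayed at 0.810 for Rnf19a and 0.753 for Ntsr2 and dropped to 0.310 for Wdr19, 0.317 for Svil and 0.426 for Cemip2, so those 3 rested on these libraries. The opposed genes depended on them too, with -0.292 for Cdc16 and -0.560 for Gm2423 without them. For Gm2423 the most similar were Cul1 (0.869), Clpx (0.866), Spg21 (0.858), Ddx1 (0.842) and Frg1 (0.827), and the most opposed Ifi207 (-0.893) and Zfp568 (-0.890). They varied far less than Gm2423 did: Clpx, for example, was at 147 to 155 CPM in KOCKD and at 113 to 134 CPM in KOCKD + RNLS. For Wdfy1 the most similar were Camk2b (0.868), Lrrc51 (0.855), Bhlhb9 (0.838), Kifap3 (0.838) and Gnb3 (0.829), and the most opposed P2ry6 (-0.824) and Stbd1 (-0.818). Over the 9 wild-type libraries alone the similar genes had -0.475, 0.127, 0.487, 0.161 and -0.396, in that order. The opposed genes had -0.274 and 0.418 there, so these patterns rested largely on the knockout libraries. Camk2b, a subunit of a calcium- and calmodulin-dependent kinase, was at 21.1 CPM in KOCKD + RNLS replicate 1 and at 27.0 and 27.4 CPM in replicates 2 and 3.

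Per unit of length, the deposited FPKM values (fragments counted per length of transcript and sequencing depth) placed the wild-type levels of Fggy at 0.491 to 0.780 FPKM, of Wdfy1 at 0.646 to 1.07 FPKM and of Gm2423 at 0 to 0.905 FPKM. In knockout hearts they ran from 0.012 to 0.985 for Fggy, 0.941 to 3.63 for Wdfy1 and 0.441 to 8.04 for Gm2423. On this scale Gm2423, the lowest of the 3 in most wild-type hearts, was the highest of the 3 in KOCKD.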

How the data were processed

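The deposited tables were made by the authors, who trimmed reads with Trimmomatic, aligned them with hisat2, assigned them to genes by htseq-count, and computed FPKM with cufflinks. The study's methods name mm9 and the submitters' processing notes name GRCm39. Counting options and tool versions are not given in the sources used here. The deposited raw counts and FPKM values were used as they stood. Coordinates and sequences came from mm9 with GENCODE, and copies were found with BLAST 2.17.0. The RefSeq table for GRCm38.p6 gave names for 17332 of the 17447 symbols (99.3%) and the order of neighbors.

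Counts of 13021 genes (filterByExpr) were scaled by TMM and fitted in edgeR 4.0.16 (R 4.3.3) with the quasi-likelihood test over all 15 libraries, with no covariate. Adjusted p-values are Benjamini-Hochberg values over all tested genes, with a threshold of 0.05. CPM use TMM-scaled library sizes, log2 CPM a prior count of 2. Library sizes were 10480788 to 13424078 counts, so 1 read was worth about 0.08 CPM. Tests were checked on simulated counts, in which 181 of 200 genes changed 2 units on the log2 scale were recovered for WTCKD against WTSHAM among 13021 genes, with 8 false calls. Replicates within groups differed by more than sampling noise (chi-square per degree of freedom 4.48 or more). The labels do not say that replicates are separate animals in so many words, so p-values measure the spread between these samples. The members, gene lists and tests were chosen with earlier results of these data known. Genes were named by these rules: the members, the 5 most and 2 least correlated genes per member, the 10 widest gaps among knockout libraries above the wild-type range, the nearest neighbors and called ones among 10 on each side, and up to 4 called genes per pathway list. Alternatives were no filter, RLE size factors, DESeq2 1.42.0, the 6 libraries of a comparison alone, a replicate block, each library left out in turn, and, for the gaps, a prior count of 0.5 and a floor of 3.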

Additional observations from a re-analysis of the deposited data

How the results depend on the processing

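The wild-type comparisons of Fggy, Gm2423 and Wdfy1 stayed short of the threshold under all 11 alternatives each (lowest adjusted p = 0.203, for Gm2423 in WTCKD + RNLS against WTCKD), and kept their direction except for Fggy in WTCKD + RNLS against WTCKD, whose log2 fold change ranged from -0.34 to 0.01 as 1 library was left out (0.01 without WTCKD + RNLS replicate 3). Leaving out 1 library moved the Gm2423 value to between 0.49 and 1.97 for WTCKD against WTSHAM. The counts of called genes depended on the setting. With the 6 libraries of the comparison alone they were 98 for WTCKD against WTSHAM, 375 for WTCKD + RNLS against WTCKD and 2 for KOCKD against WTCKD. With DESeq2 they were 568, 893 and 8, and 347 for KOCKD + RNLS against WTCKD + RNLS. With no filter on low counts they were 5 for KOCKD against WTCKD and 87 for KOCKD + RNLS against WTCKD + RNLS, and with RLE size factors 4 for KOCKD against WTCKD. With 1 library left out they ranged from 135 (without WTCKD replicate 1) to 388, from 207 (without WTCKD replicate 2) to 832, from 0 to 3 (without KOCKD replicate 2), from 841 (without KOCKD replicate 2) to 1500 and from 6 (without KOCKD + RNLS replicate 3) to 37, for WTCKD against WTSHAM, WTCKD + RNLS against WTCKD, KOCKD against WTCKD, KOCKD + RNLS against KOCKD and KOCKD + RNLS against WTCKD + RNLS. The cause of these shifts was not tested.

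Replicate numbers did not pair the samples (correlations of deviations from -0.36 to 0.232), and with them as a replicate block the called genes were 253, 522, 1, 1909 and 31 in the order WTCKD against WTSHAM, WTCKD + RNLS against WTCKD, KOCKD against WTCKD, KOCKD + RNLS against KOCKD and KOCKD + RNLS against WTCKD + RNLS.

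The gap of Fggy was 3.07 with a prior count of 0.5, and 4.26 without KOCKD replicate 1, without which that of Gm2423 was 3.44. Between 283 and 500 genes had a gap wider than their wild-type range when 1 library was left out, and 188 did with the higher floor. Counts near 0 limit Gm2423 in wild-type hearts and Fggy in KOCKD replicates 2 and 3.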
